A study of Mus musculus with 8 samples.

Results

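The genes described here are those named for proteins of the cytosolic ribosome. They were picked from the gene table by symbol, as Rps, Rpl or Rplp followed by a number and, in some, a, x, y, l or l with a digit, which leaves out mitochondrial ribosomal proteins (Mrp) and the ribosomal S6 kinases (Rps6k). The pattern matched 83 of 17384 genes, by symbol 30 Rps genes of the small subunit, 50 Rpl genes of the large subunit and 3 Rplp genes of the stalk. The Rpl genes include the pseudogene rows Rpl32l and Rpl6l and relatives such as Rpl7l1. RNA was sequenced from spleen cells carrying both B220, an isoform of CD45, and the T cell receptor subunit CD3, sorted from mice for a study of apoptosis signalling. The group labelled EAF2Faslpr had 4 libraries from Eaf2-/-Faslpr mice, and the group labelled Faslpr had 4 libraries from Faslpr mice. Both groups carried lpr, an insertion in the death receptor gene Fas, so Fas was altered in the controls too. Eaf2 encodes a partner of the ELL elongation factors of RNA polymerase II. The labels name no age, strain background or Eaf2 allele, and they do not say whether the libraries of a group came from separate mice. The p-values therefore rest on the spread among these libraries, which may be technical.

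Ribosomal proteins assemble with ribosomal RNA into the small subunit, which reads the mRNA, and the large subunit, which joins amino acids. Their mRNAs are among the most abundant of lymphocytes, start with a run of pyrimidines at the cap, and are translated under control of mTORC1 and the RNA-binding protein Larp1. Ribosomal protein genes have left many processed pseudogenes in mammalian genomes, intronless copies of the mRNA that can be almost identical to it, and short reads from the gene and such a copy are hard to tell apart.

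The libraries held 15.56 to 18.64 M estimated reads (M, megareads), and 3 reads correspond to 0.161 to 0.193 CPM. CPM here are estimated reads per M reads of the tested genes after TMM scaling. Eaf2, given as -/- in the EAF2Faslpr mice, was at 4.43, 4.20, 4.02 and 6.29 CPM in the 4 EAF2Faslpr libraries. In the 4 Faslpr libraries it was at 25.7, 24.2, 20.8 and 31.5 CPM, a log2 difference of -2.43 (adjusted p = 2.9e-05, edgeR). B cell markers moved with the group: 15 of 16 tested were higher in EAF2Faslpr (adjusted p under 0.05, edgeR), against 7.14% of all genes. Their summed level was 421 to 784 CPM against 116 to 187 CPM. Of 11 tested macrophage and neutrophil markers (3 more fell below the filter) Lyz2 and Cybb were higher, or 18.2%. Their median log2 fold change was 1.65, and only Cd68 and Cxcr2 were negative (-0.23 and -0.12). Macrophage and neutrophil markers summed to 277 CPM in EAF2Faslpr 3. The sums were 79.0 to 89.4 CPM in the other EAF2Faslpr libraries and 57.9 to 75.6 CPM in Faslpr. The 11 T cell markers summed to 6400 to 6530 and 5940 to 6200 CPM, and 1 of them, Cd2, was higher. EAF2Faslpr 3 held the highest sum of B cell markers and of macrophage and neutrophil markers. The part of these markers in the results below was not tested, and in bulk RNA fewer cells of a type and less RNA per cell cannot be told apart.

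Each of the 3 ribosomal protein genes called below has near-identical copies with rows of their own in the table, so stretches of their coding sequence, and of 2 further genes, are shown first beside copies that carried reads. Sequences are from GENCODE M21 transcripts (build GRCm38), read 5′ to 3′ on the coding strand, and capitals in a copy mark bases that differ from the gene. Positions count from 1 at the first coding base of the gene. For Rpl21 on chromosome 5 (coding bases 278 to 337), with copies on chromosomes 2, 9 and 11:
Rpl21: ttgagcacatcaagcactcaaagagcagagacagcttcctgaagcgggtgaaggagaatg
Gm13653: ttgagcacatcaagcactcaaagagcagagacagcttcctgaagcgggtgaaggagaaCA
Gm46142: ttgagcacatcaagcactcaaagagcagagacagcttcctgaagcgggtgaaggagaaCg
Gm11703: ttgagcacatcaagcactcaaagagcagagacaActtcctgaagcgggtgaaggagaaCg
Over all 480 coding bases, Gm13653 differed from Rpl21 at 8, Gm46142 at 9 and Gm11703 at 4, and all 3 copies carried the substitution T336C. For Rps2 on chromosome 17 (coding bases 10 to 69), with copies on chromosomes 6 and 5:
Rps2: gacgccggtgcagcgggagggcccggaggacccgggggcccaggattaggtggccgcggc
Gm10420: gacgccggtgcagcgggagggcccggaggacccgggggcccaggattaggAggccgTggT
Gm6139: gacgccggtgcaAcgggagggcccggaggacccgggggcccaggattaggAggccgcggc
Over 882 aligned bases, Gm10420 differed from Rps2 at 17 and Gm6139 at 10, and both carried T60A. For Rpl35a on chromosome 16 (coding bases 127 to 186), with copies on chromosomes 13 and 2:
Rpl35a: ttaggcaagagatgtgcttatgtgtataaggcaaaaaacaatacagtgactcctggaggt
Gm10029: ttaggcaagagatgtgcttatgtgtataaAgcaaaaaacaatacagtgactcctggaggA
Gm14279: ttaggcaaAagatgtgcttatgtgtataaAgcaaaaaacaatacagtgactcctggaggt
Gm10029 differed at 7 and Gm14279 at 5 of 330 coding bases. For Rpl34 on chromosome 3 (coding bases 73 to 132), with a copy on chromosome 6, and for Rpl30 on chromosome 15 (coding bases 37 to 96), with a copy on chromosome X:
Rpl34: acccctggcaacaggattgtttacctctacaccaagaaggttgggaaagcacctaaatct
Rpl34-ps1: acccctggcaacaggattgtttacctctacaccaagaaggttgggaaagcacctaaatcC
Rpl30: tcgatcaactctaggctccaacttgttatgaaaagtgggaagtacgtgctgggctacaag
Gm7429: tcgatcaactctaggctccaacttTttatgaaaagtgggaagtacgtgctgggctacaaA
Rpl34-ps1 differed from Rpl34 at 2 of 353 bases and Gm7429 from Rpl30 at 4 of 345. All 9 copies shown are processed pseudogenes in GENCODE M21. A read that spans none of the differing bases fits the gene and its copy equally well.

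Ribosomal protein mRNAs stood near the top of the transcriptome. Of the 83 genes, 80 passed the filter on low counts, and their mean FPKM over the 8 libraries (fragments per kilobase of gene and per M fragments, a level per length as the authors deposited it) ran from 1.863 to 2225 with a median of 965.8, against a median of 11.8 over all tested genes. Among the 100 genes of highest FPKM, 59 were ribosomal protein genes. The highest were Rpl23a at 2225 FPKM and Rpl12 at 2205 FPKM, both of the large subunit, then Rps15 of the small subunit at 1887 FPKM and Rplp0, the base of the stalk, at 1862 FPKM. At the low end stood Rpl7l1 at 32.1 FPKM, a relative of Rpl7 known from the nucleolus, and the pseudogene rows Rpl32l at 2.42 and Rpl6l at 1.86 FPKM. Some genes to which the table gives a long effective length (implied by its counts and FPKM) were also low per length, such as Rpl21 at 77.6 FPKM with 1807 nt and Rps15a at 46.2 FPKM with 5087 nt. Not tested were Rpl10l and Rpl3l, each with 1 read in 1 library, and Rpl39l, with 2.0 to 36.27 reads; Rpl10l and Rpl39l are known from testis and Rpl3l from striated muscle.

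The comparison asked which of these mRNAs differ between EAF2Faslpr and Faslpr. At an adjusted p under 0.05 (edgeR quasi-likelihood test, Benjamini-Hochberg over 12340 genes), 3 of the 80 differed, against 12.1% of all genes tested. Rpl30 alone was higher in EAF2Faslpr, against 7.14% of all genes, and Rpl21 and Rps2 were lower, against 4.96%. The CPM of the groups did not overlap for Rpl21, Rps2, Rpl30 and Rpl7l1, 4 of 80, against 17.7% of all genes. DESeq2 called 5, the same 3 with Rps9 higher and Rpl7l1 lower, against 15.4% of all genes. At an unadjusted p under 0.05 stood 7 of 80, against 24.9% of all genes. The typical SE of a log2 fold change was alike, with a median of 0.109 for ribosomal protein genes and 0.116 for all.

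Rpl21, a protein of the large subunit, was at 29.6, 36.4, 38.0 and 37.9 CPM in EAF2Faslpr and at 239.7, 227.5, 211.3 and 306.0 CPM in Faslpr. Every EAF2Faslpr library lay far below every Faslpr library. Its log2 fold change was -2.79 (SE 0.13, adjusted p = 1.6e-06), or 6.93-fold lower. Rps2, a protein of the small subunit near the mRNA entry channel, was at 1251, 1221, 1211 and 1153 CPM in EAF2Faslpr and at 1603, 1638, 1446 and 2144 CPM in Faslpr. The groups did not overlap, and Faslpr 4 stood above its group. The log2 fold change of Rps2 was -0.50 (SE 0.11, adjusted p = 0.0167), and without EAF2Faslpr 4 the adjusted p was 0.0508. Rpl30, a protein of the large subunit, was at 395.7, 403.1, 364.1 and 368.8 CPM in EAF2Faslpr and at 286.0, 285.1, 294.1 and 329.2 CPM in Faslpr. All EAF2Faslpr libraries were above all Faslpr libraries, with a log2 fold change of 0.36 (SE 0.07, adjusted p = 0.0094).

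**Figure D1:**
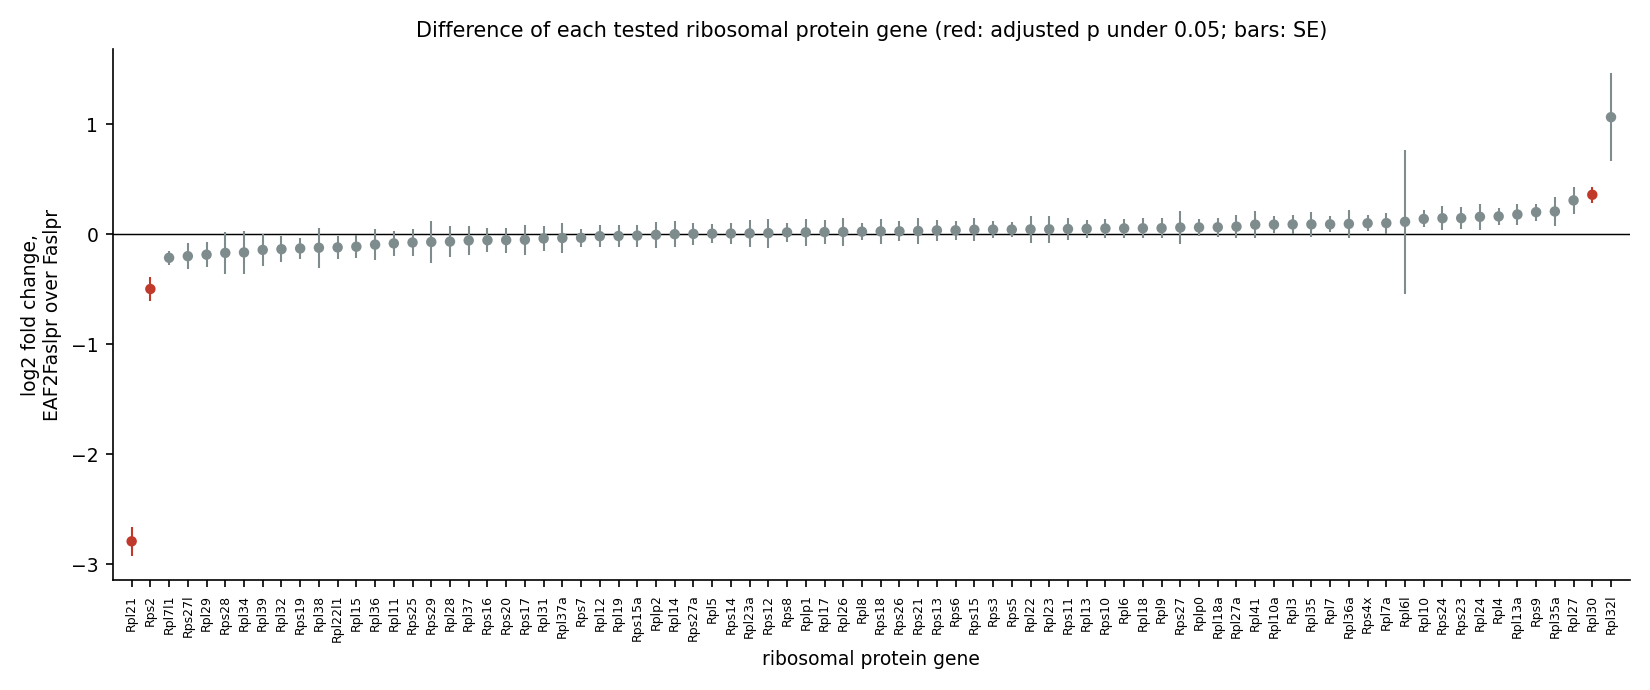
Log2 fold change (EAF2Faslpr over Faslpr, vertical axis) of each of the 80 tested ribosomal protein genes, in rising order along the horizontal axis. Points are edgeR estimates from 4 libraries a group, bars are 1 SE, and red marks the 3 genes with an adjusted p under 0.05, Rpl21 at -2.79, Rps2 at -0.50 and Rpl30 at 0.36.

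Rows that hold near-identical copies of these genes differed too, and some copies of the called genes Rpl21 and Rps2 passed in the opposite direction, while Gm5528, a copy of Rpl21, passed in the same one. A search of the coding sequences against GENCODE M21 transcripts (at least 90% identity over at least 70% of the coding sequence) found copies for 72 of the 78 tested genes with a coding sequence there, with a median of 8.5 copies a gene and 78 copies of Rpl21. Leaving out Rpl32l and Rpl6l, which met the search but are among the 83 genes, the table held 74 such rows, and 1 more, Rpl27a-ps4, was added by its name alone. These 75 rows belonged to 33 genes, and 31 of them passed the filter. Of those 31, 9 differed, 6 higher and 3 lower, against the same 12.1%. Of these 9, 8 were copies of Rpl21, Rpl35a and Rps2, and the ninth was Rpl27a-ps4. The rows were picked for their likeness to the genes after the genes' values had been seen.

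Among the copies of Rpl21, Gm13653 was at 54.5, 53.4, 62.4 and 45.3 CPM in EAF2Faslpr and at 11.9, 16.2, 18.4 and 10.8 CPM in Faslpr. Gm46142 was at 22.2, 13.2, 23.7 and 21.0 CPM against 0.630, 1.37, 0.275 and 1.08 CPM. Both were higher in every EAF2Faslpr library, with log2 fold changes of 1.91 and 4.58 (adjusted p = 0.000103 and 3.95e-05). Gm5528 went the other way, at 0.321 to 0.717 CPM against 3.41 to 8.88 CPM (adjusted p = 0.000694). Gm11703 did not overlap between groups, at 206.9 to 249.6 against 118.3 to 202.4 CPM, and its adjusted p was 0.127. The most abundant copy, Gm15682, lay at 263 ± 17.1 and 270 ± 50.2 CPM (SD, n = 4), and the groups overlapped. Rpl21 itself held 4.22, 4.89, 5.11 and 5.60% of the reads of its family, the gene and its 8 copy rows, in EAF2Faslpr and 27.9 to 32.8% in Faslpr. The share of the family's reads placed on Rpl21 was thus lower in all 4 EAF2Faslpr libraries.

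For Rps2 the copies Gm10420 and Gm6139 carried reads almost only in EAF2Faslpr. Gm10420 was at 113, 106, 92.8 and 118 CPM in EAF2Faslpr and at 1.20, 2.26, 1.38 and 1.02 CPM in Faslpr (adjusted p = 5.74e-08). Gm6139 was at 121, 131, 118 and 119 CPM against 1.78, 0, 0.770 and 2.31 CPM (adjusted p = 9.67e-06). Rps2 held 83.9% ± 0.938 of its family's reads in EAF2Faslpr and 99.8% ± 0.00844 in Faslpr (SD, n = 4). The third copy, Gm45855, was at 1.83 ± 0.243 against 0.356 ± 0.300 CPM (adjusted p = 0.0185).

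Rpl35a, a large subunit protein affected in some Diamond-Blackfan anaemia families, showed the reverse. Its copy Gm10029 was at 0.514, 0.491, 0.441 and 0.442 CPM in EAF2Faslpr and at 46.7, 70.8, 56.5 and 79.2 CPM in Faslpr, a log2 fold change of -7.05 (adjusted p = 7.28e-08). Gm14279 had at most 0.221 CPM in EAF2Faslpr and 1.43 to 4.20 CPM in Faslpr (adjusted p = 0.0014). Rpl35a itself was at 341, 382, 427 and 310 CPM against 281, 297, 291 and 396 CPM, with overlapping groups (log2 fold change 0.21, adjusted p = 0.368). Its share of the family's reads was 99.6% ± 0.119 in EAF2Faslpr and 82.8% ± 2.0 in Faslpr.

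In 2 families a single library stood apart. Rpl34 was at 309, 335, 157 and 277 CPM in EAF2Faslpr and at 271, 309, 290 and 340 CPM in Faslpr, so EAF2Faslpr 3 was the lowest of all 8. In that library Rpl34-ps1 held 3431.74 estimated reads, while in the other 7 it held 0 to 23.67, and Rpl34 held 45.4% of the family's reads against at least 99.5%. The Rpl30 copy Gm7429 was at 181 CPM in EAF2Faslpr 3, at 69.7 to 76.7 CPM in the other 3 EAF2Faslpr libraries and at 108.8 to 133.8 CPM in Faslpr. Rpl30 held 66.7% of its family in EAF2Faslpr 3, 83.9 to 84.1% in the other EAF2Faslpr libraries and 68.6 to 72.3% in Faslpr. Families also existed in which the split hardly moved: Rps15a held 38.3% ± 0.464 and 38.1% ± 1.66 of its family with Rps15a-ps5, and Rpl31 held 26.3% ± 1.82 and 27.5% ± 1.11 with Rpl31-ps12.

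**Figure D2:**
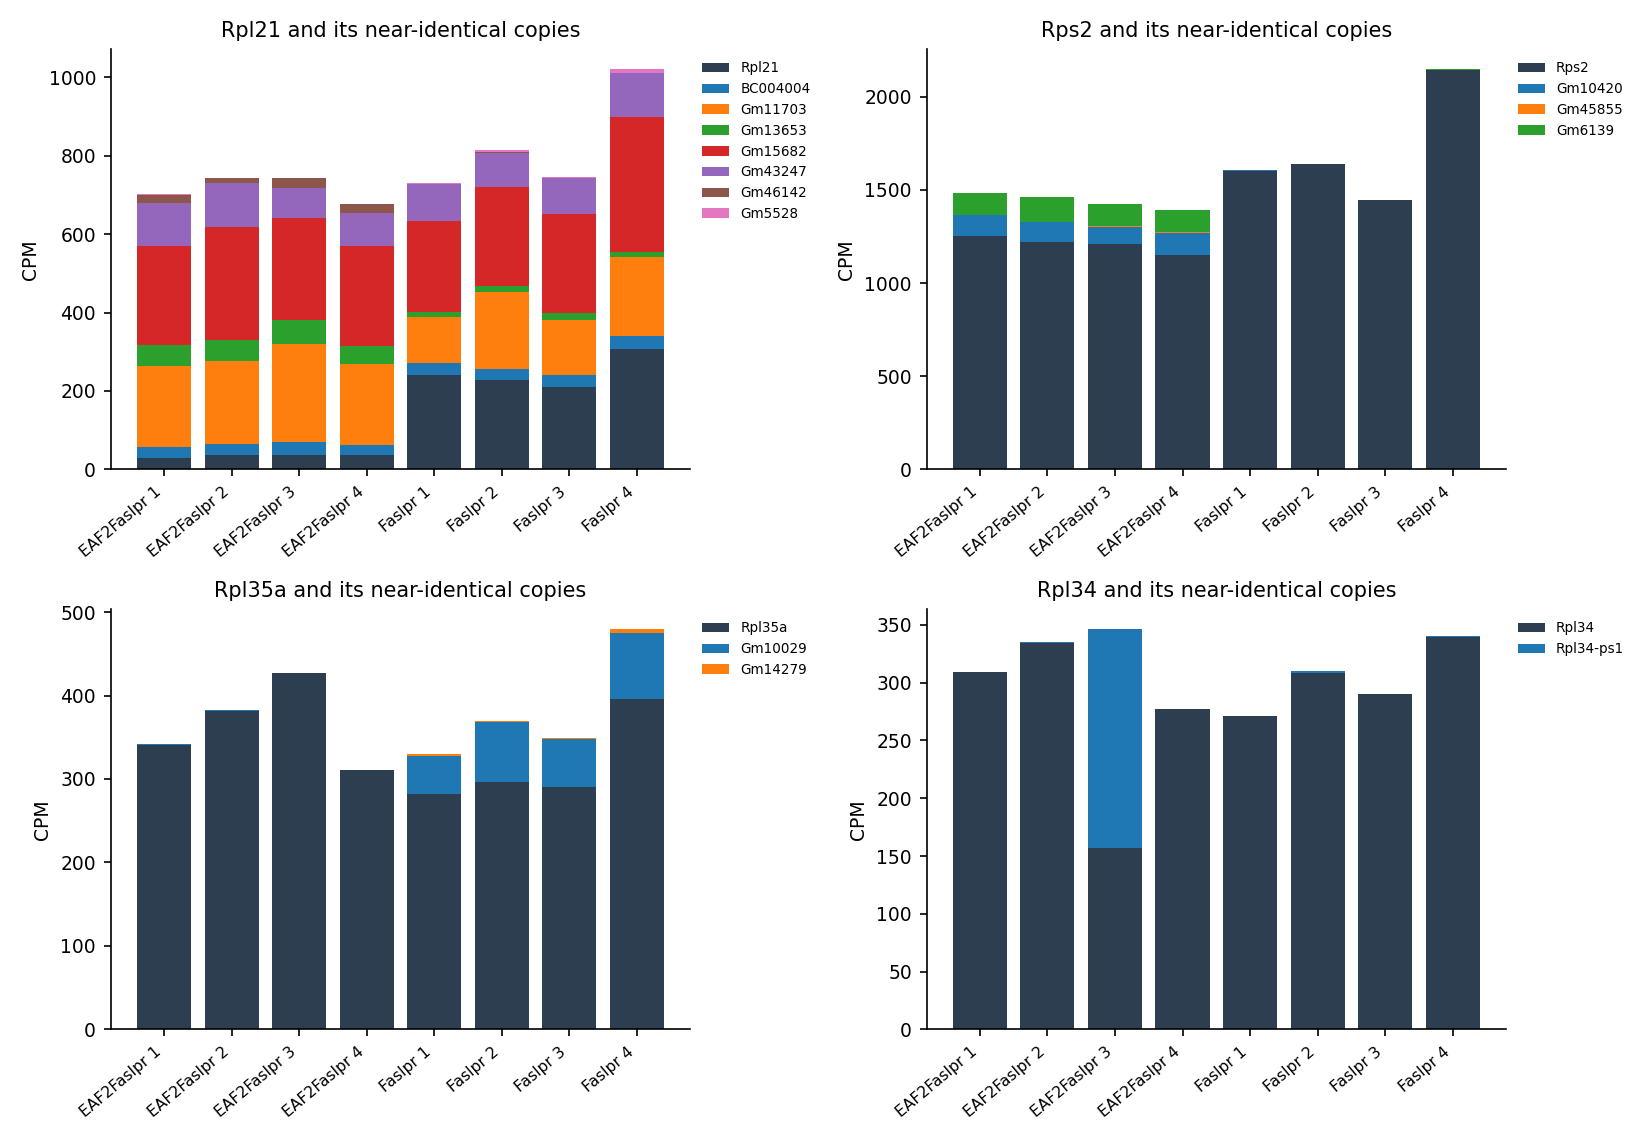
CPM (vertical axis) of 4 ribosomal protein genes and of the rows holding their near-identical copies, stacked for each of the 8 libraries (horizontal axis); colours stand for rows of the table. The Rpl21 segment is 29.6 to 38.0 CPM in EAF2Faslpr and 211.3 to 306.0 CPM in Faslpr while the stacks are 676 to 744 and 731 to 1021 CPM high, and the Rpl34-ps1 segment is seen in EAF2Faslpr 3.

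With the reads of each gene and its copy rows added, 0 of the 80 genes differed by edgeR, against 12.0% of all genes in that table. Of the 80, 6 stood at an unadjusted p under 0.05 (edgeR), against 24.9% of all genes before copies were added. Without Faslpr 4 the count was 16 of 81, and without both libraries numbered 4 it was 24 of 81. The share of all genes at that p is not given for the left-out fits. Whether these counts set the ribosomal protein genes apart from other genes therefore cannot be told. On the same sums limma-voom called 0, against 12.0% of all genes, and DESeq2 called 2, Rps9 and Rpl7l1, against 15.3%; neither of these has a copy row. The summed Rpl21 family was at 701, 744, 743 and 676 CPM in EAF2Faslpr and at 731, 815, 746 and 1021 CPM in Faslpr. The groups overlapped, and the log2 fold change was -0.21 (SE 0.11, adjusted p = 0.257) in place of -2.79. The summed Rps2 family was at 1486, 1460, 1424 and 1393 CPM against 1606, 1641, 1448 and 2147 CPM, with a log2 fold change of -0.25 (SE 0.11, adjusted p = 0.201). Without Faslpr 4, the highest library of both families, the summed log2 fold change was -0.10 for Rpl21 and -0.12 for Rps2. The summed Rpl30 family was at 470, 480, 546 and 439 CPM against 396, 411, 429 and 463 CPM (log2 fold change 0.19, SE 0.08, adjusted p = 0.19), and without EAF2Faslpr 3, where Gm7429 stood high, its log2 fold change was 0.12. Over all 33 families the summed log2 fold changes ran from -0.25 to 0.19. This sum was chosen after the values had been seen, and it holds only copies that have a row in the table. Fractional estimated counts, which arise where reads are shared out among genes, were common here: 66 of the 80 genes, 82.5%, had none within 0.001 of a whole number in any library, against 52.6% of all tested genes.

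**Figure D3:**
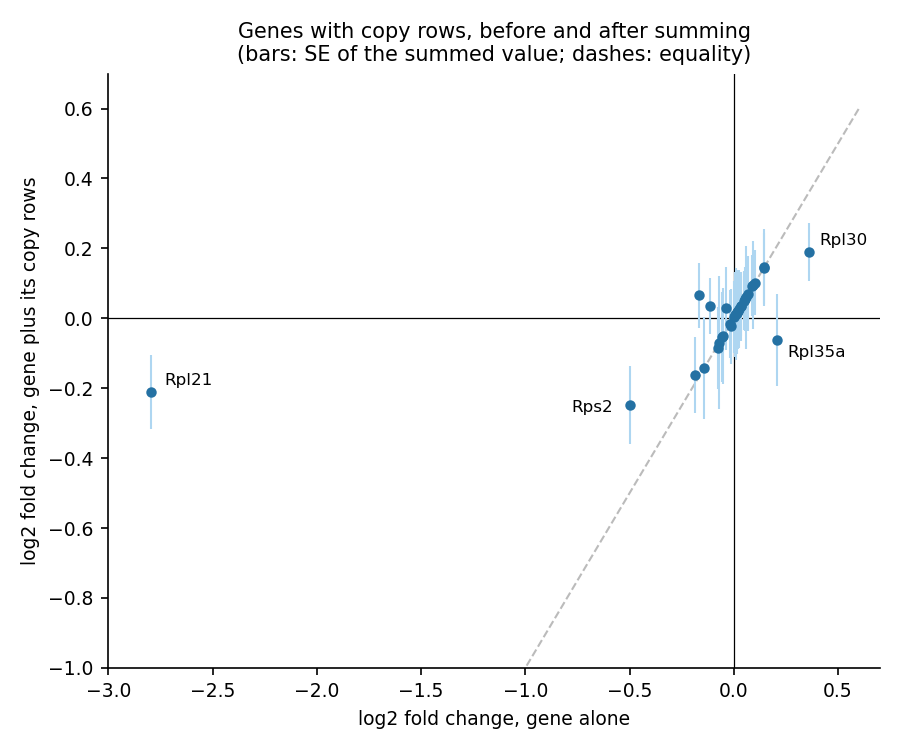
Log2 fold change of the 33 ribosomal protein genes that have copy rows, for the gene alone (horizontal axis) and for the gene plus its copy rows (vertical axis; the axes differ in scale). Bars are 1 SE of the summed value and the dashed line marks equality; Rpl21 moves from -2.79 to -0.21 and Rps2 from -0.50 to -0.25.

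The other ribosomal protein mRNAs differed little. The median log2 fold change of the 80 was 0.025, against -0.013 over all genes, with quartiles of -0.05 and 0.07 against -0.14 and 0.15. Leaving out Faslpr 4, the library richest in these mRNAs, gave a median of 0.108, and leaving out EAF2Faslpr 3, Faslpr 1 or Faslpr 3 gave -0.014, -0.013 and -0.019. In all, 51 had a positive and 29 a negative log2 fold change, and 72 were under 0.2 in size. Among the 78 genes averaging at least 10 CPM, the 75 that did not pass ran from -0.21 (Rpl7l1) to 0.31 (Rpl27).

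By subunit, the 30 small subunit genes ran from -0.50 (Rps2) to 0.20 (Rps9) on the log2 scale, with a median of 0.021. Rps9, which sits at the mRNA entry channel, was at 1082, 1062, 1169 and 983 CPM in EAF2Faslpr and at 927, 923, 874 and 1016 CPM in Faslpr, and only Faslpr 4 overlapped the other group (adjusted p = 0.129). Rps6, the substrate of the S6 kinases, was at 1328 ± 67.7 and 1295 ± 135 CPM (adjusted p = 0.847). Rps19, the gene most often affected in Diamond-Blackfan anaemia, was at 467 ± 37.3 and 511 ± 56.6 CPM (adjusted p = 0.444). Rps27a, made as a fusion with ubiquitin, was at 717 ± 75.6 and 716 ± 86.2 CPM. For Rps6, Rps19 and Rps27a the difference was smaller than the SD in Faslpr.

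The 47 tested Rpl genes of the large subunit, with the pseudogene rows Rpl32l and Rpl6l among them, had a median of 0.044. Rpl27 had the largest log2 fold change among the uncalled genes above 10 CPM, at 434, 404, 461 and 356 CPM in EAF2Faslpr and at 303, 338, 282 and 414 CPM in Faslpr (log2 fold change 0.31, SE 0.12, adjusted p = 0.15). Faslpr 4 overlapped the EAF2Faslpr libraries, and without it Rpl27 and Rpl24 passed beside the 3 called genes, 5 in all against 11.5% of all genes (log2 fold change 0.43 and 0.29, adjusted p = 0.0253 and 0.034). Without both libraries numbered 4, Rpl35a passed as well, 6 in all against 8.26% of all genes. Rpl5 and Rpl11, which hold back the p53 ligase Mdm2 when ribosome assembly stalls, were at 1194 ± 62.5 and 487 ± 30.5 CPM in EAF2Faslpr and at 1190 ± 136 and 516 ± 91.6 CPM in Faslpr. Their adjusted p-values were 0.982 and 0.723. The 3 stalk genes, whose proteins recruit the elongation factors, had log2 fold changes of 0.06 (Rplp0), 0.02 (Rplp1) and -0.01 (Rplp2). Rplp0 was at 2495 ± 204 and 2390 ± 130 CPM and the groups overlapped. Rps9, Rps6, Rps19, Rps27a, Rpl27, Rpl24, Rpl5, Rpl11, Rpl34, Rpl35a, Rpl15, Rpl31, Rps15a and the copy rows were named after their values had been seen.

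Paralogs of ribosomal proteins were compared with their parents as ratios of FPKM within a library, for the 5 pairs detected in every library. Rpl7l1 stood at 2.14% of Rpl7 in EAF2Faslpr and 2.64% in Faslpr, and its log2 ratio was -5.49, -5.58, -5.64 and -5.48 against -5.32, -5.18, -5.19 and -5.27. The groups did not overlap, which gives the smallest p that 4 against 4 libraries allow, 0.0286 (exact two-sided permutation test), and 0.143 after adjustment over the 5 pairs. Rpl7l1 itself was at 80.8, 73.8, 74.3 and 75.5 CPM against 87.9, 90.9, 82.6 and 91.8 CPM (log2 fold change -0.21, SE 0.07, adjusted p = 0.0606, and 0.0226 by DESeq2). Rpl22l1, whose mRNA is held down by Rpl22, was at 261% of Rpl22 in EAF2Faslpr and 295% in Faslpr (adjusted p = 0.179, exact permutation test). These ratios are per length, with effective lengths of 439 nt for Rpl22l1 and 2154 nt for Rpl22. In CPM, which are not divided by length, Rpl22l1 was below Rpl22, at 136 against 255 in EAF2Faslpr and 148 against 247 in Faslpr. Rps27l, a p53 target, was at 4.27% and 5.20% of Rps27 (adjusted p = 0.179, exact permutation test). The pseudogene rows Rpl32l and Rpl6l were below 0.3% of their parents, and their differences in log2 ratio of 1.41 and -0.49 had adjusted p = 0.143 and 0.743 (exact permutation test). No pair passed after adjustment.

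Levels of the ribosomal protein genes moved together from library to library. In their share of reads the groups overlapped through the libraries numbered 4, and not among those numbered 1 to 3. The 83 genes held 5.43, 5.58, 5.75 and 5.03% of all estimated reads in EAF2Faslpr and 4.93, 5.31, 4.83 and 6.20% in Faslpr. The means were 5.45% ± 0.308 and 5.32% ± 0.624 (SD, n = 4), and the highest and the lowest share both lay in Faslpr. The difference of 0.129 percentage points was 0.422 without Faslpr 4 and 0.562 without both libraries numbered 4. As a share of summed FPKM the values were 17.4% ± 0.759 and 17.1% ± 1.31. Taking for each of the 78 genes above 10 CPM its log2 deviation from its own mean over the 8 libraries, the median deviation was 0.24 in Faslpr 4, where 74 of the 78 genes lay above their mean. It was -0.10 in EAF2Faslpr 4 and -0.16 in Faslpr 3, where 5 genes in each lay above their mean. The other EAF2Faslpr libraries had medians of 0.00, 0.06 and 0.11, and Faslpr 1 and 2 had -0.14 and -0.01. Across pairs of these genes the median Pearson correlation over the 8 libraries was 0.71 and 93.2% of pairs were positive, a description only, since the genes share each library's scaling and composition.

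The deviation was also taken for short and long genes apart. For the 20 genes with the shortest effective length (up to 468 nt) the median was 0.33 in Faslpr 4, -0.25 in Faslpr 1 and -0.18 in EAF2Faslpr 4. For the 20 longest (950 nt or more) it was 0.21, -0.08 and -0.08. In Faslpr 3 the values were -0.13 and -0.16. Across all 78 genes, which are not independent, the Pearson correlation of the deviation with log2 length was taken in each library. It was -0.1, -0.27, -0.25 and 0.02 in EAF2Faslpr 1 to 4 and 0.44, 0.04, 0.13 and -0.01 in Faslpr 1 to 4. The median log2 fold change between groups was -0.06 for the short and 0.04 for the long genes.

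**Figure D4:**
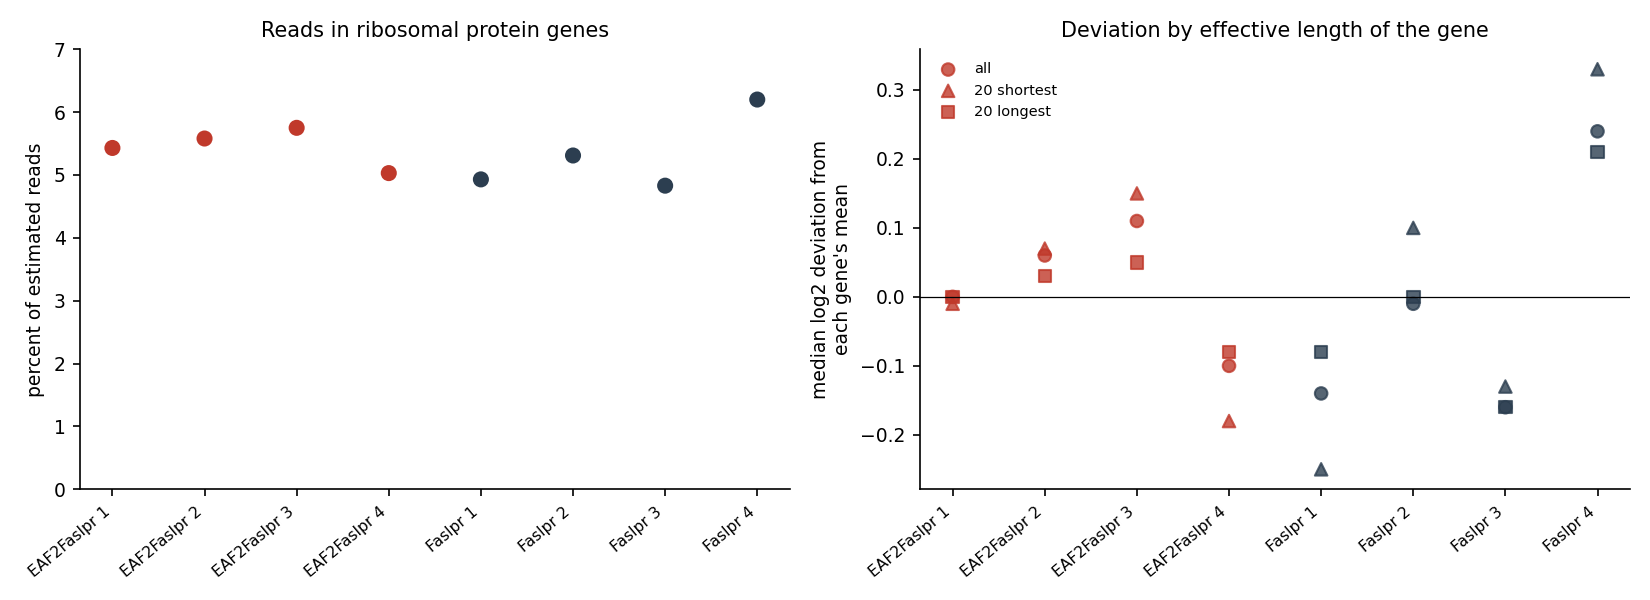
Left, percent of estimated reads in the 83 ribosomal protein genes (vertical axis) for each library; right, median log2 deviation of the 78 genes above 10 CPM from each gene's mean over the 8 libraries, for all of them (circles) and for the 20 shortest and 20 longest (triangles and squares). Red stands for EAF2Faslpr and dark blue for Faslpr; each point is 1 library, and Faslpr 4 is highest in both panels, at 6.20% and 0.24.

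Since these genes moved together, their start sites were read from RefSeq windows of build GRCm38.p6 (250 bases before to 50 after a start), which matched 62 of the 83 genes with 74 windows. The examples below run from 10 bases before the annotated start to 20 from it, on the gene's strand, and were chosen because they hold, in capitals, a run of at least 8 pyrimidines that opens with C, the form of the start motif of these mRNAs:
Rpl15 (chr14:18270967-18270996, minus strand): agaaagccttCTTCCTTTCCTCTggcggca
Rpl35 (chr2:39005112-39005141, minus strand): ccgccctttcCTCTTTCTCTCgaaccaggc
Rps6 (chr4:86857348-86857377, minus strand): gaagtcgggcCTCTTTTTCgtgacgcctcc
Rpl35a (chr16:33056472-33056501, plus strand): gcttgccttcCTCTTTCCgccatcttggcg
In the examples the run opens at the annotated start itself, which held for at least 10 of the 62 genes. Anywhere within the 30 bases, such a run lay in 25 of 74 windows of ribosomal protein genes (33.8%) against 9.22% of all 17133 windows. Within 50 bases of the start on either side it lay in 79.7% against 28.4%. The letters CCGGAAG, on either strand of the whole window, were present in 33.8% against 13.9%, and TATAAA in 10.8% against 8.97%. These are matches of letters and say nothing of what binds there.

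Genes that make, load or control ribosomes, from lists drawn up for this comparison, differed in few cases. Of 6 ribosomal proteins whose symbols escape the pattern (Rpsa, Rps3a1, Rack1, Fau, Rpl36al and Rps27rt), 0 passed by edgeR, DESeq2 or limma-voom, and 0 had an unadjusted p under 0.05. The most abundant, Rpsa, was at 2367 ± 136 and 2166 ± 146 CPM. Of 6 elongation factors listed with Tpt1 and the nascent chain factors Naca and Btf3, 9 genes in all, 0 passed with each of the 3 tools, 0 had an unadjusted p under 0.05, and the median log2 fold change was 0.14. Of 29 initiation factors 0 passed by edgeR and limma-voom and 1 by DESeq2, 1 had an unadjusted p under 0.05, and the median was 0.04. Of 42 ribosome assembly factors 0 passed by edgeR and limma-voom and 2 by DESeq2, 4 had an unadjusted p under 0.05, and the median was -0.06.

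A few regulators did pass. Of 32 genes for RNA polymerases I and III and their factors, Taf1d, a subunit of the factor that places polymerase I on ribosomal DNA, was higher and Polr3b, a core subunit of polymerase III, was lower. Taf1d was at 112, 110, 112 and 104 CPM in EAF2Faslpr and at 95.1, 93.7, 95.8 and 83.6 CPM in Faslpr (log2 fold change 0.25, adjusted p = 0.0364). Polr3b was at 49.9 to 52.4 CPM against 61.2, 61.4, 55.0 and 59.2 CPM (log2 fold change -0.23, adjusted p = 0.0499). Neither overlapped between groups, and leaving out any 1 EAF2Faslpr library ended both calls (adjusted p = 0.0591 to 0.0891 and 0.0872 to 0.121). Of 18 regulators of ribosomal protein mRNA translation, Tsc1, an inhibitor of mTORC1, was lower, at 65.3 to 76.3 CPM against 85.7 to 98.8 CPM (log2 fold change -0.34, SE 0.08, adjusted p = 0.0153, and 0.0555 without Faslpr 2). Of 16 genes for ribosome stress and quality control, Gcn1, which senses collided ribosomes upstream of Gcn2, was higher, at 309, 315, 289 and 340 CPM against 247, 248, 229 and 209 CPM (log2 fold change 0.43, SE 0.08, adjusted p = 0.00627). The 78 mitochondrial ribosomal protein genes had 1 higher (Mrps23, 0.43) and 2 lower (Mrpl10 and Mrpl15, -0.38 and -0.28), with a median of -0.06. Each of these lists lay below the 12.1% of all genes.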

How the data were processed

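RNA from sorted B220+CD3+ spleen cells was extracted with TRIzol and made into DNBSEQ mRNA libraries, per the labels' protocols. Per the submitters' processing notes, HISAT2 2.2.1, Bowtie2 2.4.5 and RSEM 1.3.1 were used on GRCm39, with no role stated. The authors deposited an estimated count per gene, not scaled to depth, and FPKM for each library. The 16 further per-sample columns the authors deposited, TPM and normalised read counts (a signal per gene scaled to like totals), were not used. Annotation, strand setting and filters: not given in the sources used here. RSEM divides reads shared by similar sequences by estimate, so values of a gene and its copies, and of overlapping or antisense genes, are uncertain.

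Estimated counts were rounded, filtered with filterByExpr, scaled with TMM and tested with edgeR's quasi-likelihood test (edgeR 4.0.16, R 4.3.3). The p-values were Benjamini-Hochberg adjusted over all 12340 genes, and no covariate was used. The script was tested on simulated data. There 42.5% of log2 changes of 0.5 and 98.2% of those of 1.0 were recovered, and smaller changes were not simulated. CPM and SD are per group of 4; SE is the log2 fold change over the root of F. FPKM served for levels, effective lengths and paralog ratios. DESeq2 1.42.0, limma 3.58.1, other scalings, no filter, left-out libraries, the replicate number as a block and summed copies were alternatives. Floors of 3 reads cover counting error only.

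The members, the gene lists and the sum over copies were chosen with earlier results of these data known. Named genes were: called members, the 4 highest and 3 lowest by FPKM, paralog pairs, Rpl21 and Rps2, ribosomal proteins outside the pattern (1 is not reported here), up to 2 passing genes of each other list, Eaf2 and Fas. Fas was at 64.2 ± 6.87 and 54.3 ± 9.82 CPM (adjusted p = 0.276); other names are marked as chosen after their values were seen.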

Additional observations from a re-analysis of the deposited data

Results flagged for a closer look

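In 92 groups of 4 libraries checked for a library far from the other 3 by Dixon's ratio, 7 held one. The cut is one that about 1 in 20 independent groups would pass by chance. The groups here share libraries, and some rows were named after their values were seen, among them Rpl34-ps1, Gm7429, Gm11703 and Rpl35a. The count of 7 therefore cannot be set against that rate. In EAF2Faslpr 3, the copies Rpl34-ps1 (189 CPM against 0.0 to 0.823), Gm7429 (181 against 69.7 to 76.7) and Gm11703 (250 against 207 to 211) stood high. In Faslpr 4, Rpl35a (396 against 281 to 297 CPM) and Rps3a1 (2050 against 1810 to 1850) stood high and Taf1d (83.6 against 93.7 to 95.8) stood low. In EAF2Faslpr 4, Polr3b was high (52.4 against 49.9 to 50.2 CPM). EAF2Faslpr 3 was also the library with the most reads in B cell and in macrophage and neutrophil markers, and Faslpr 4 the one with the largest share of reads in ribosomal protein genes; the part of either in these values was not tested.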

How the results depend on the processing

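Calls among the 80 genes changed with the treatment of copies and with single libraries. Rpl21 and Rpl30 kept their call in 17 of 18 alternatives and Rps2 in 16 of 18; all 3 lost it when near-identical copy rows were added, which left 0 higher and 0 lower in place of 1 and 2. DESeq2 called 2 higher (Rpl30, Rps9) and, as lower, Rpl7l1 too (0.0226). Leaving out both libraries numbered 4 gave 4 higher (Rpl30, Rpl24, Rpl27, Rpl35a), with 8.26% of all genes called. Leaving out 1 library gave 1 to 3 higher (2 without Faslpr 1, with Rpl32l, and 3 without Faslpr 4, with Rpl24 and Rpl27) and 1 to 3 lower (1 without EAF2Faslpr 4, and 3 without Faslpr 3, with Rpl7l1). Over all genes it gave 990 to 1599 calls, 990 of 12488 without Faslpr 2 and 1599 of 12485 without Faslpr 3. The count was 1149 of 12523 without Faslpr 1, 1111 of 12465 without EAF2Faslpr 4 and 1439 of 12478 without Faslpr 4. The median log2 fold change ran from -0.019 to 0.108 without 1 library and was 0.142 without both numbered 4. The difference in read share ran from -0.034 to 0.422 percentage points without 1 library and was 0.562 without both numbered 4.

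Once copies were added, leaving out 1 library gave 0 to 2 calls, 1 without Faslpr 1 (Rpl32l), 1 without Faslpr 3 (Rpl7l1) and 2 without Faslpr 4 (Rpl27, Rpl24); without both numbered 4 there were 2 (Rpl27, Rpl24) and by DESeq2 2 (Rps9, Rpl7l1). None of these is a gene with copy rows. Before copies were added, 11.5% of all genes passed without Faslpr 4 and 8.26% without both numbered 4. On the sums 15.3% of all genes passed by DESeq2, and the share is not given for the left-out fits. On the sums, genes at an unadjusted p under 0.05 (edgeR) were 16 of 81 without Faslpr 4. They were 24 of 81 without both numbered 4, against 6 of 80 with all libraries. The share of all genes at that p is not given for these fits. The causes were not tested. Taf1d and Polr3b lost their call in 8 and 15 alternatives and Tsc1 without Faslpr 2.

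Replicate numbers are shared by the groups, but same-numbered libraries did not deviate together: r was 0.128, 0.168, 0.064 and -0.05 for numbers 1 to 4, and 2 of 4 correlated best with their own number. With the replicate block, 1425 genes were called in place of 1493, with the same 1 higher and 2 lower, and 0 once copies were added. The log2 fold changes of 72 of 80 genes were within 2 of their SEs.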
